A study of Homo sapiens with 19 samples.

Results

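Plectin (PLEC), dystonin (DST), microtubule-actin crosslinking factor 1 (MACF1) and desmoplakin (DSP) are 4 members of the plakin family, and their splicing, their RNA level and the binding of the splicing factor AKAP8 to their transcripts were followed in HMLE/Twist-ER cells. All rows of the rMATS tables that carry one of the 4 gene symbols were taken, which gave 37 distinct splicing events of the 100239 in the tables (20 in DST, 8 in PLEC, 5 in MACF1 and 4 in DSP), 32 of them cassette exons, as well as the 256 and 425 AKAP8 peaks over these genes in the epithelial and mesenchymal state, of 24637 and 30390 peaks in all. The gene family was chosen with a view on these same measurements, that is, selected on the PSI of its exons and the AKAP8 peaks over PLEC as earlier results showed them, so the PSI differences and peak counts below describe the members and are no independent support for a role of the family. The selection itself used no threshold on a measured value, and every adjusted p-value comes from a fit over all events or genes of a comparison.

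Plakins are very large proteins that tie the parts of the cytoskeleton to each other and to the cell membrane. Plectin and the epithelial form of dystonin (BPAG1e) anchor keratin filaments at hemidesmosomes, where an epithelial cell is attached to its basement membrane, and desmoplakin does so at desmosomes, where it is attached to its neighbor. The long forms of dystonin and MACF1, also called spectraplakins, have an actin-binding part at one end and a microtubule-binding part at the other. All 4 genes have many exons, and PLEC is known for a row of alternative first exons that direct plectin to different places in the cell.

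HMLE/Twist-ER cells are immortalized human mammary epithelial cells that carry the transcription factor Twist fused to an estrogen receptor domain. They are epithelial (EPI) without treatment and pass through an epithelial-mesenchymal transition (EMT) to the mesenchymal state (MES) under 20 nM tamoxifen. Cells of both states expressed, from lentiviral vectors, either a non-specific shRNA (control) or an shRNA against AKAP8 (AKAP8 KD), and all groups share the Twist-ER transgene. Poly(A) RNA was sequenced from 3 EPI control, 3 EPI AKAP8 KD, 3 MES control and 2 MES AKAP8 KD cultures, and AKAP8 eCLIP was done as 2 immunoprecipitates and 2 size-matched inputs in each state.

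Over all libraries and tables, the cassette exon rows held 31258177 to 40852217 junction reads per library. The EPI control libraries are the same in the EPI knockdown and the EMT tables, as are 2 MES control libraries in the MES knockdown and EMT tables, so these comparisons are not independent of each other. AKAP8 itself, measured as scaled junction reads, was 244, 310 and 245 in the EPI control and 121, 98.8 and 125 in the EPI AKAP8 KD libraries, and 382, 196 and 248 in the MES control against 108 and 122 in the MES AKAP8 KD libraries, with log2 changes of -1.20 ± 0.25 (SE) and -1.20 ± 0.28 and adjusted p-values of 0.066 and 0.032 (limma). In EMT all 4 epithelial markers tested fell, with CDH1 (E-cadherin) at a log2 change of -4.34, and all 7 mesenchymal markers tested rose, among them ZEB1 at 4.29, where 7.16% of all genes were called lower and 5.38% higher.

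In control cells, 3 of the 27 plakin events tested changed in EMT, all of them toward exon skipping in the mesenchymal state: the 3381-nt exon of PLEC, an 18-nt microexon of DST and a 111-nt exon of MACF1. An event was called at a false discovery rate under 0.05 and a difference in PSI (percent spliced in, the share of transcripts with the exon, from 0 to 1) of at least 0.1. Of all events tested, 1.59% were called in EMT and 0.818% were called toward skipping. The other plakin exons were almost always included where they were listed, and 10 of the 32 cassette exons were listed in all 3 comparisons. Of the 32, 27 had a PSI of at least 0.95 in every library of the comparisons that list them, with a lowest value of 0.953 among them. The median size of the PSI difference over the plakin events was 0.00234 in EMT, beside 0.00934 over all events.

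DST had exons whose inclusion moved in opposite directions in EMT. The 18-nt microexon lies at chr6:56333780-56333797 (GRCh37, minus strand) in the coding part of 7 of the 12 protein-coding transcripts that span it, and its length is a multiple of 3, so that it adds codons without a shift of the reading frame. Its PSI was 0.892, 0.956 and 0.907 in the EPI control and 0.738, 0.720 and 0.765 in the MES control libraries. The groups did not overlap, and the difference of -0.177 ± 0.023 (SE, n = 3 and 3) had an adjusted p of 2.35e-04 in the quasi-binomial fit. The call was lost with limma on the logit of PSI (adjusted p = 0.183). A 111-nt exon farther toward the 3′ end, at chr6:56327844-56327954, went the other way. Its PSI was 0.892, 0.871 and 0.943 in EPI and 0.989, 0.992 and 0.981 in MES control cells, a difference of 0.085 ± 0.022 with an adjusted p of 1.99e-04 that stays below the required size of 0.1 and was therefore not called. Both exons are shown because they are the DST exons whose inclusion differed between the states. They are given on the DST strand with the exon in capitals, with 60 nt of intron on each side of the microexon and 20 nt on each side of the longer exon.

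DST 18-nt exon: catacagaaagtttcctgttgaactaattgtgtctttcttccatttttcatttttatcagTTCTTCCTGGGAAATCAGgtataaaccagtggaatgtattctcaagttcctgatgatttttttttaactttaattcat
DST 111-nt exon: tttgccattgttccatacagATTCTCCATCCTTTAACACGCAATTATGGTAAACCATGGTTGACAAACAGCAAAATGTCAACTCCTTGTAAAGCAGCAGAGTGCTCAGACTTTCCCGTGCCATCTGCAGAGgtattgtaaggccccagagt
The microexon holds TGGGA, 1 of the 4 forms of the G-run flanked by A or U that was searched for AKAP8 (the word AGGGA, the word AGGGT, the word TGGGA and the word TGGGT, on the sense strand, where neighboring matches may share a letter). This word is common in a stretch as long as the 138 nt shown, the microexon with its flanks. Of windows of 138 nt centered on the 52719 distinct cassette exons of the tables, 19.1% hold it. The share for windows of 18 nt, the length of the microexon itself, was not counted.

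MACF1, the closest relative of DST, has a variable exon of the same length near its 3′ end. This 111-nt exon, at chr1:39946592-39946702 (plus strand), is coding in 4 of the 10 protein-coding transcripts that span it. It was the only plakin exon that was mostly skipped in epithelial cells, with a PSI of 0.356, 0.352 and 0.304 in the EPI control libraries. In the MES control libraries it was 0.264, 0.0755 and 0.0945. The first MES control library lay closer to the epithelial values than to the other MES libraries, but the groups did not overlap, and the difference was -0.193 ± 0.062 with an adjusted p of 8.52e-09. This call was lost when the dispersion trend was drawn over all junction reads (adjusted p = 0.503) or when limma was run on the logit of PSI (0.286), while it was kept without any one library. The MACF1 and DST exons of 111 nt are shown because they have the same length. Set base against base without a gap, 60 of the 111 bases (54.1%) are identical. No other pair of exons was compared in this way, so this share has no background.

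MACF1 111-nt exon: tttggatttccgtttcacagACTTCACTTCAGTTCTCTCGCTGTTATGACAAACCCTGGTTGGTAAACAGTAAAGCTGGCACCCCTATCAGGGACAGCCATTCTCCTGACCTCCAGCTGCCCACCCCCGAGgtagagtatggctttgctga
The capitals mark the exon, with 20 nt of intron on each side. It holds AGGGA, which is found in 11.5% of windows of 111 nt centered on all cassette exons, while the DST exon of the same length holds none of the 4 words.

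Knockdown of AKAP8 in epithelial cells changed no plakin event past the thresholds: 0 of 28 events were called by the quasi-binomial test and 0 by limma on the logit of PSI, while 5 had an unadjusted p under 0.05. Of all events tested in this comparison, 0.0492% were called and 4.76% had an unadjusted p under 0.05. The DST microexon had a PSI of 0.964, 1 and 0.960 in the EPI AKAP8 KD libraries, all above the 3 control values, with a difference of 0.056 ± 0.023 and an adjusted p of 0.706. The DST 111-nt exon had a PSI of 0.994, 0.963 and 0.969, again above all controls, with a difference of 0.073 ± 0.024 and an adjusted p of 0.524. The MACF1 exon, at 0.331, 0.279 and 0.336, overlapped its controls with a difference of -0.022 ± 0.025.

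In mesenchymal cells 0 of 20 plakin events were called after AKAP8 knockdown, by the quasi-binomial test as by limma, and 4 had an unadjusted p under 0.05. Of all events, 0.054% were called and 3.88% had an unadjusted p under 0.05. The largest PSI difference was that of the DST microexon. Its PSI fell from 0.738 and 0.720 in the 2 MES control libraries used in this table to 0.445 and 0.583 in the 2 AKAP8 KD libraries, by values that do not overlap, but its difference of -0.215 ± 0.070 had an adjusted p of 0.252. With the dispersion trend over all junction reads the adjusted p was 0.0098 and the event was called. The MACF1 exon had 0.264 and 0.0755 in the control and 0.0927 and 0.0656 in the AKAP8 KD libraries, where 1 control library decides the value: without the second MES control the difference was -0.185 with an adjusted p of 0.00869, against -0.091 ± 0.095 and 0.535 with all libraries. The DST 111-nt exon reached a PSI of 1 in both AKAP8 KD libraries, from 0.989 and 0.992 in the controls.

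The knockdown effect was compared between the states for the 10 plakin cassette exons present in all 3 comparisons. None passed the test of this difference, which was called in 0.00993% of all events tested, and 2 had an unadjusted p under 0.05, as had 7.45% of all events. The DST microexon had the largest difference, with the knockdown effect 0.284 lower in MES than in EPI cells (p = 9.65e-05 in the quasi-binomial fit over 11 libraries, adjusted p = 0.268). The same difference for the MACF1 exon was -0.044 (adjusted p = 0.67). Both values use all 3 MES controls, of which the MES knockdown comparison holds 2. Over the 10 libraries of the knockdown comparisons the same fit gave -0.272 (adjusted p = 0.365) for the DST microexon and -0.069 (adjusted p = 0.652) for the MACF1 exon.

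**Figure D1:**
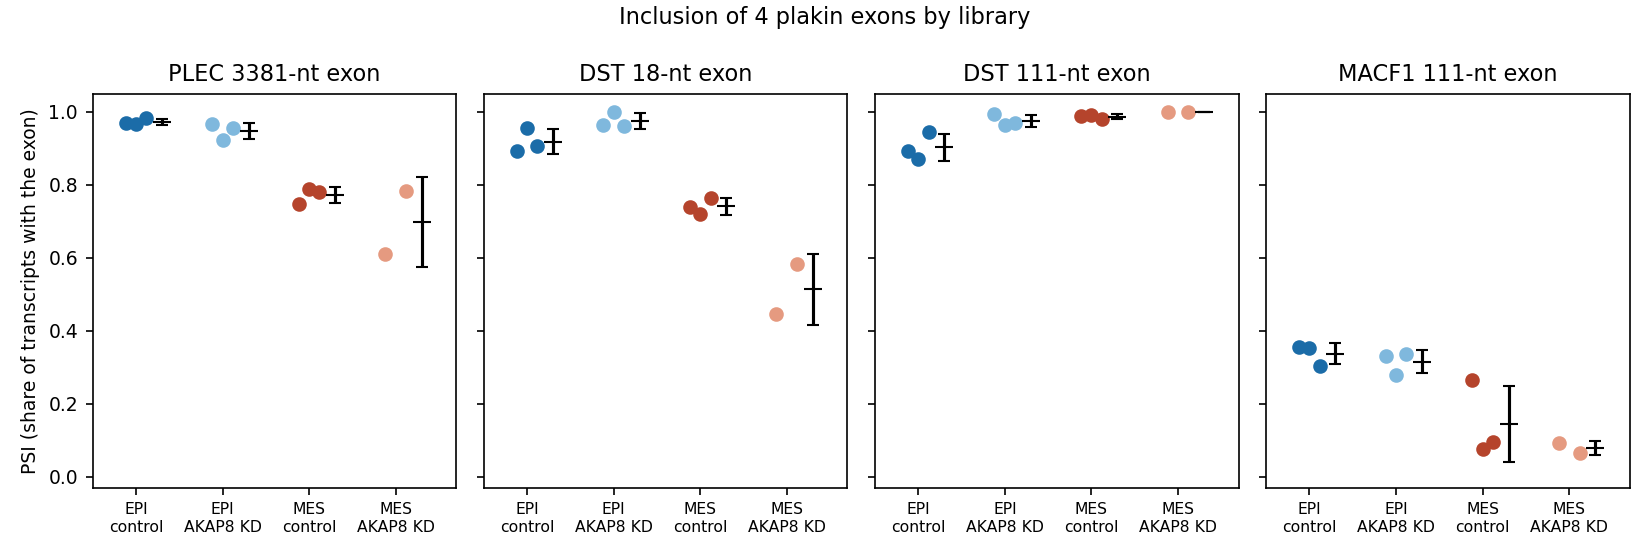
PSI (0 to 1) of 4 plakin exons in each library of the 4 groups, with 1 point per library and the mean ± SD beside it. The PLEC, DST 18-nt and MACF1 exons sit lower in MES control than in EPI control cells, the DST 111-nt exon sits higher, and the DST 18-nt exon is lower still in the 2 MES AKAP8 KD libraries.

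The level of DST RNA was read from the coverage of each cassette event, that is, the junction reads of both forms, each set against its effective length, scaled by the size factor of the library. In bulk RNA, fewer cells with a transcript and less of it per cell cannot be told apart. Of the DST exons covered in EMT, 10 belong only to transcripts other than DST-205, and 2 are shared with DST-205. Another 1, of 2730 nt at chr6:56482784-56485513, is found only in DST-205, a short transcript of the BPAG1e type. The transcripts other than DST-205 are called the longer transcripts below. Their lengths were not compared with that of DST-205, and not all of them hold all 10 exons. The 10 exons of the longer transcripts were higher in MES control cells with log2 changes of 0.67 to 1.22 (median 1.09), and 7 of them passed the threshold of a 2-fold change and an adjusted p under 0.05 (limma). Their groups did not overlap in any of the 10, as was the case, with the MES libraries higher, for 23.1% of all events. Exons of 1 gene share their transcripts and are not independent of each other. The exon only in DST-205 had 242, 162 and 329 scaled reads in EPI and 93.6, 100 and 168 in MES control cells, so that the groups overlapped by 1 library. It fell by 1.01 ± 0.27 on the log2 scale with an adjusted p of 0.0146, which rose to 0.060 without the library that counted most. The 2 shared exons had changes of 0.18 and 0.22 with adjusted p-values of 0.618 and 0.564. Of the 24 plakin events covered, 11 were called, 7 higher and 4 lower, beside 6.25% of all events called higher and 7.42% lower. Without EPI control library 2 the 11 were 5, and without MES control library 3 they were 7.

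The 2 kinds of DST transcript can be set against each other within a library, which removes the scaling between libraries. The coverage of the DST-205 exon was 1.26, 1.30 and 1.24 times the median of 5 exons of the longer transcripts in the EPI control libraries and 0.258, 0.283 and 0.343 times in the MES control libraries. The log2 ratio thus moved from 0.34 ± 0.04 (SD) to -1.77 ± 0.21, and the exact two-sided permutation test gave p = 0.1, which is the smallest value 3 against 3 libraries allow. In EPI AKAP8 KD cells the ratio was 1.49, 1.28 and 1.24 (exact permutation p = 0.7). Inclusion of the 2730-nt exon relative to the skipping form in its own row did not carry this difference, with a PSI of 0.918 ± 0.032 in EPI and 0.891 ± 0.070 in MES control cells.

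After AKAP8 knockdown in mesenchymal cells all 11 DST exons covered were lower, with log2 changes between -1.25 and -0.78. Their groups did not overlap, but with 2 against 2 libraries this held, in the same direction, for 29.5% of all events. The 164-nt exon at chr6:56336857-56337020, for example, had a coverage of 606 and 468 in the MES control and 241 and 265 in the AKAP8 KD libraries, a change of -1.07 ± 0.18 with an adjusted p of 0.0177. Of the 17 plakin events 3 passed the threshold, all 3 in DST and all lower, where 1.47% of all events were called lower and 1.07% higher. The DST-205 exon was among them, at 93.6 and 100 against 45.0 and 35.5 (log2 change -1.25 ± 0.24), and its ratio to the longer transcripts was 0.258 and 0.283 in the control and 0.235 and 0.174 in the AKAP8 KD libraries (exact permutation p = 0.333, the smallest that 2 against 2 libraries allow). No plakin event was called without MES control library 1 or without MES control library 2, and 5 were called without MES AKAP8 KD library 2. In epithelial cells 0 of 25 plakin events were called for coverage (limma), with 1 at an unadjusted p under 0.05. Of all 49323 events 0% were called higher and 0% lower, with 7.01% at an unadjusted p under 0.05. The coverage fit did not pair the libraries by list place, although deviations at the same place correlated in the EPI knockdown comparison.

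The gene-level sum of DST was taken over the 6 of its 17 cassette events that are present in all 3 comparisons. One of them is the exon only in DST-205, which fell in EMT, and the others, of the longer transcripts, rose. Summed in this way, DST had 2433, 1574 and 3185 scaled reads in the EPI control, 2543, 1155 and 3010 in the EPI AKAP8 KD, 4056, 3424 and 5112 in the MES control and 1911 and 1999 in the MES AKAP8 KD libraries. The second library of each epithelial group was the lowest. The gene-level changes of 0.85 ± 0.32 in EMT and -1.08 ± 0.36 after knockdown in MES cells had adjusted p-values of 0.0748 and 0.104 (limma, all 11 libraries). They were not called, where 12.5% and 2.27% of all genes were called. Both had an unadjusted p under 0.05, for which no share over all genes is given here. In EPI cells the change was -0.15 ± 0.32 and 0.189% of genes were called. Without the second EPI AKAP8 KD library, which enters the spread of the fit, the adjusted p for MES AKAP8 KD was 0.0119, and without EPI control library 3 that for EMT was 0.0449.

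**Figure D2:**
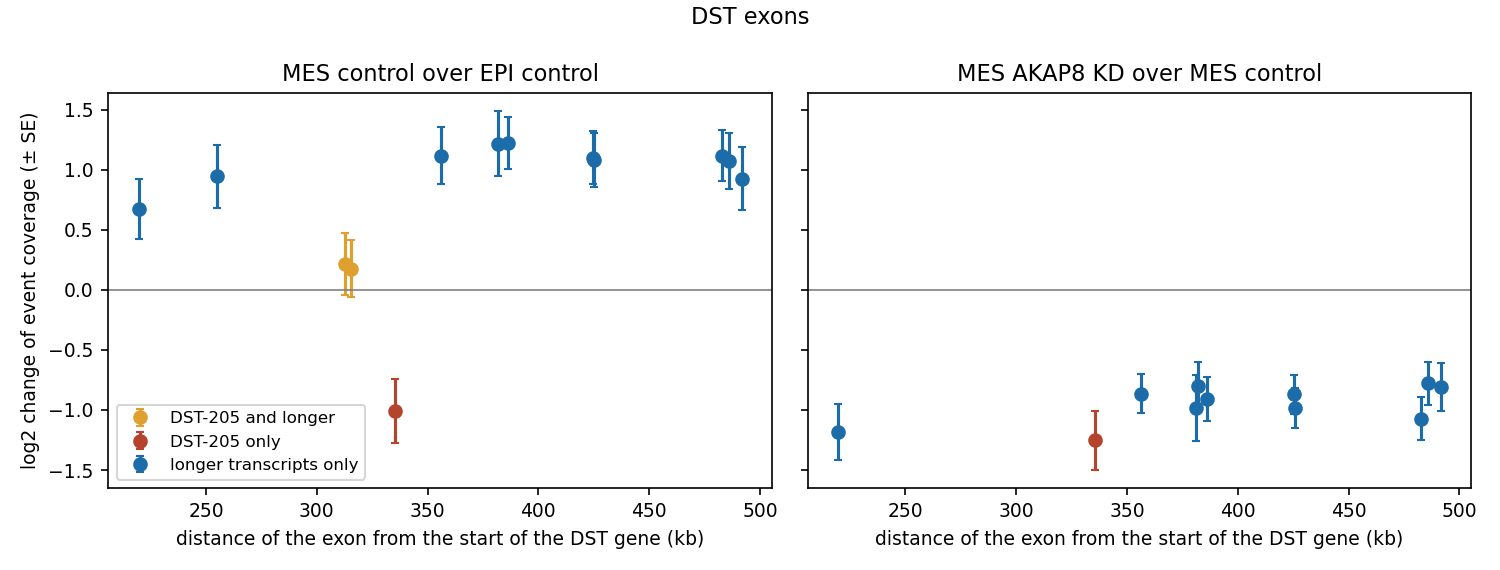
Log2 change (± SE) of the coverage of each DST cassette event against the distance of its exon from the start of the gene in kb, for MES control over EPI control (left) and MES AKAP8 KD over MES control (right). Longer transcripts are here all those other than DST-205, whose lengths were not compared. In EMT their exons lie between 0.67 and 1.22 and the exon only in DST-205 at -1.01, while after AKAP8 knockdown in MES cells all 11 exons lie between -1.25 and -0.78.

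MACF1 showed an uneven change along its length in EMT. The 4 upstream exons, between chr1:39768596 and 39835858, were lower in the MES control libraries by log2 changes of -1.10 to -0.63, and 2 of them were called, where 7.42% of all events were called lower. Their groups did not overlap, which held in this direction for 20.9% of all events. The 155-nt exon at chr1:39768596-39768750, the first of them, had a coverage of 178, 215 and 201 in EPI and 60.3, 112 and 113 in MES control cells (log2 change -1.10 ± 0.23, adjusted p = 0.00382). The event at the 111-nt exon near the 3′ end had 309, 279 and 376 against 288, 385 and 396, a log2 change of 0.14 ± 0.17 with an adjusted p of 0.556. Set against the median of the other 4 events in the same library, this 3′ event stood at 1.75, 1.35 and 1.72 in EPI control, 3.11, 3.34 and 3.06 in MES control and 1.87, 1.49 and 1.56 in EPI AKAP8 KD cells. The first 2 groups did not overlap, at the smallest exact permutation p of 0.1, while the EPI AKAP8 KD libraries overlapped the EPI control (exact permutation p = 1). Of the 4 transcripts with the 111-nt exon, 2 hold none of the upstream exons, but position along the gene and transcript choice cannot be told apart from these events. The gene-level sum of MACF1 rests on the 111-nt exon event alone, and was not called in any comparison.

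Desmoplakin RNA fell in EMT. The event at the 129-nt exon at chr6:7562885-7563013 had a coverage of 900, 1129 and 1113 in EPI and 206, 398 and 423 in MES control cells, with a log2 change of -1.67 ± 0.23 and an adjusted p of 1.95e-04. The groups were far apart, and the call was kept without any one library (log2 changes of -1.86 to -1.34). After AKAP8 knockdown in epithelial cells this event was at 1239, 1436 and 1013 and its change of 0.22 ± 0.19 was within the spread. In mesenchymal cells the only DSP event, an 84-nt exon, had 299 and 584 in the control and 262 and 564 in the AKAP8 KD libraries, so that the libraries of one group differed more than the groups. All 4 DSP exons had a PSI of at least 0.996 in every library of the comparisons that list them, and none was listed in all 3 comparisons. In the EPI knockdown table the exon before the last was listed with both of its annotated downstream ends, as a 498-nt exon (chr6:7579508-7580005, of the DSP-202 transcript) and a 2295-nt exon (chr6:7579508-7581802, of DSP-201), but the use of one end against the other was not tested.

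**Figure D3:**
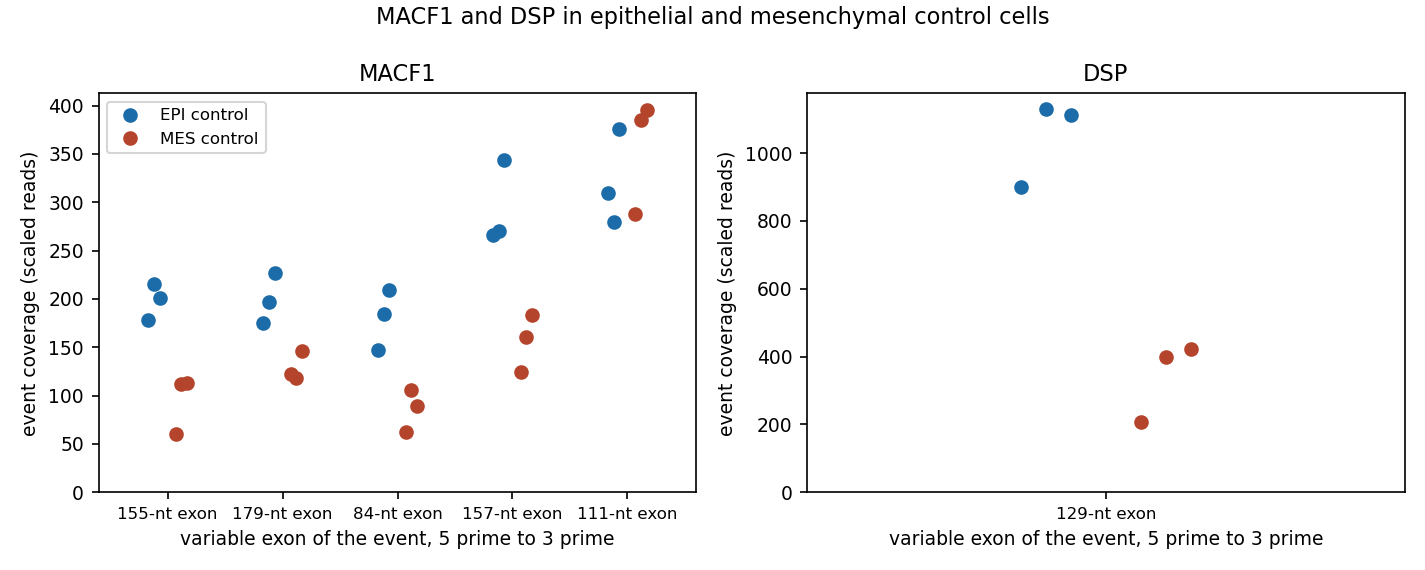
Coverage in scaled reads of each MACF1 event (left, ordered from 5′ to 3′) and of the DSP event (right) in the 3 EPI control and 3 MES control libraries, with 1 point per library. The first 4 MACF1 events and DSP are lower in every MES library, while the MACF1 111-nt exon event overlaps between the states.

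The partners of these proteins were read from gene lists. Of the hemidesmosome list all 7 genes were tested and 6 fell in EMT (median log2 change of the list -2.60, beside 0.01 over all genes, of which 7.16% were called lower), among them ITGB4 at -2.60, the integrin subunit that binds plectin, and COL17A1 at -2.65, the collagen that binds BPAG1e. CD151, the seventh, was at -0.02. Of the desmosome list 6 of the 8 genes tested fell, among them JUP (plakoglobin) at -2.49, with a list median of -1.97. Of the other plakins only PPL (periplakin) was tested, and it fell in EMT at -1.26 (adjusted p = 0.027) and in MES cells after AKAP8 knockdown at -2.06 (adjusted p = 0.019). Of the 3 filament genes tested VIM (vimentin) rose and KRT6A fell, and 0 of the 3 microtubule plus-end genes were called by limma, with 1 at an unadjusted p under 0.05. After AKAP8 knockdown in MES cells 1 desmosome gene, DSG3, fell at -1.03, while 0 of the 7 hemidesmosome genes were called and 0 had an unadjusted p under 0.05. In EPI cells limma called no gene of these lists, with 1 desmosome, 1 filament and 1 mesenchymal gene at an unadjusted p under 0.05. No cassette exon of a listed gene was called by the quasi-binomial test. In EMT, for example, 0 of 117 exons of hemidesmosome genes were called and 10 had an unadjusted p under 0.05. Of all 49330 cassette exons tested in EMT, 691 were called and 5143 had an unadjusted p under 0.05. For the counts of genes at an unadjusted p under 0.05, no share over all genes is given here.

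PLEC had the largest PSI difference of the family in EMT. The 3381-nt exon at chr8:144996672-145000052 (minus strand) codes for the rod, the long coiled-coil middle part of plectin, and is held by 13 of 14 protein-coding transcripts, while the last one is the known rodless form. Its PSI was 0.969, 0.966 and 0.982 in the EPI control and 0.746, 0.790 and 0.781 in the MES control libraries. The difference of -0.200 ± 0.014 (n = 3 and 3) was far larger than the spread within either group, had an adjusted p of 3.01e-27, and remained called under every alternative test and without any one library, but not where a difference of at least 0.2 was required. The skipping junction had 23, 31 and 13 reads in EPI and 181, 117 and 111 in MES control cells.

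AKAP8 knockdown gave lower means without a call. In epithelial cells the rod exon had a PSI of 0.965, 0.921 and 0.954 in the AKAP8 KD libraries, just under the lowest control at 0.966, with a difference of -0.025 ± 0.014 (adjusted p = 0.706). In mesenchymal cells it was 0.610 and 0.784 against 0.746 and 0.790, where 1 AKAP8 KD library lay low and the other between the controls (difference -0.071 ± 0.090, adjusted p = 0.764). The other 5 PLEC cassette exons, of 78 to 96 nt, had a PSI of at least 0.991 in every library of the comparisons that list them. The mutually exclusive rows of PLEC gave shares of one exon against the other between 0.418 and 0.537, although both exons of each row were included in nearly all transcripts by their own cassette rows. PLEC RNA did not change past the threshold, with 3934, 4933 and 4529 scaled reads in the EPI control and 4273, 3693 and 3515 in the MES control libraries (log2 change -0.22 ± 0.19, adjusted p = 0.426), and with gene-level changes of -0.18 ± 0.19 and 0.15 ± 0.21 after knockdown in EPI and MES cells.

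AKAP8 peaks were taken from the 2 merged lists, 1 per state, in which a peak has a log2 ratio of immunoprecipitate over size-matched input and no replicate values, so that peak counts carry no test. The lists hold many overlapping peaks, and for this reason counts are given as deposited and after overlapping or touching peaks were joined into regions, which leaves 13675 regions in EPI and 17873 in MES. A count also depends on how much RNA of a gene there was to bind. The family was divided sharply in this readout, since almost all peaks were over PLEC, while MACF1 had 7 peaks in EPI and 1 in MES, DSP had 1 in EPI and none in MES, and DST had none in EPI and 1 in MES.

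The DSP peak, the DST peak and 4 of the MACF1 peaks are shown because these genes have so few. The MACF1 EPI peaks shown are the 3 of 7 that hold any of the 4 words. Those at chr1:39571685-39571740 (log2 ratio 4.84) and chr1:39624302-39624409 (4.32), for example, hold none and are not shown. The sequences are printed 5′ to 3′ on the strand of the gene, from GRCh37, and capitals mark a match to any of the 4 words. In MACF1 the highest log2 ratio was 4.96 at chr1:39571670-39571767 in EPI, in an intron 635 nt after an annotated start. Another EPI peak, at chr1:39571875-39571971, overlapped the only MES peak at chr1:39571916-39571972 (log2 ratio 1.89), and a further EPI peak stood at chr1:39625115-39625174, 608 nt after a start. The DSP peak lay in an intron at chr6:7543171-7543251, 1307 nt after the nearest start (2.55), and the DST peak lay in a first exon at chr6:56707957-56708010, 30 nt after a start (2.44).

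MACF1 EPI peak, highest: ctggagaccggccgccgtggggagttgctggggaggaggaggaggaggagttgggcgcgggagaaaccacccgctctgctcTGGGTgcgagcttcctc
MACF1 EPI peak, shared: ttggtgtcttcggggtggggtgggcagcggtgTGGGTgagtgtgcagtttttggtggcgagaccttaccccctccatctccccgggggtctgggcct
MACF1 MES peak: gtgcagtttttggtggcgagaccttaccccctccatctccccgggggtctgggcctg
MACF1 EPI peak, other site: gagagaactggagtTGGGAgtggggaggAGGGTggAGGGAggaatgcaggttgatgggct
DSP EPI peak: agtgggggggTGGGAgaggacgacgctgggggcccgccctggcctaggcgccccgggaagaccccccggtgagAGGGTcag
DST MES peak: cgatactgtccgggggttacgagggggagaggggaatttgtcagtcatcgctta
Of these the MACF1 MES peak and the DST peak hold none of the 4 words, although both hold a run of G. Of the MACF1 peaks in EPI, 3 of 7 hold at least 1 of them. Of all peaks, 66.8% in EPI and 61.7% in MES do so. None of these peaks was near a variable exon. The smallest distances were 38442 nt in MACF1 (157-nt exon, EPI), 19634 nt in DSP (129-nt exon, EPI) and 107870 nt in DST (62-nt exon, MES). From the MACF1 111-nt exon the closest EPI peak was 71669 nt away, and the DST peak was 374160 nt from the microexon.

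PLEC was among the genes with the most peaks in both states. It had 248 peaks in EPI and 423 in MES, which is 1.01% and 1.39% of the lists and placed it 4th and 7th of all protein-coding genes, and 75 and 111 joined regions, which placed it 10th and 20th of the 2703 and 1927 genes with a region. By regions per kb of gene it stood 40th and 29th. The median gene with a region had 2 regions in each state. The median log2 ratio of the PLEC peaks was 4.40 in EPI and 4.19 in MES, above the medians of 3.67 and 3.36 over the whole lists, and 247 of 248 and all 423 peaks met a log2 ratio of at least 2 with a -log10 adjusted p of at least 3.

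The PLEC peaks lay almost entirely in the part of the gene that holds its alternative first exons. Upstream of the first exon shared by its transcripts (chr8:145012799-145012860) the gene has 38.0 kb with 13 annotated starts, and this part held 244 of the 248 EPI peaks and all 423 MES peaks. In regions per kb this was 1.89 against 0.127 in the rest of the gene in EPI, and 2.92 against 0 in MES. These densities are per kb of gene and were not set against intron length. The rest of the gene holds long exons such as the 3381-nt rod exon. By the center of the peak, 98.0% of EPI and 96.9% of MES peaks were intronic, and only 5 and 13 peaks were centered in a first exon. Within 1000 nt after a start lay 37.1% and 38.3% of the PLEC peaks, where 25.1% and 15.8% of all peaks did. With 13 starts in 38.0 kb, a large part of this stretch itself lies within 1000 nt after a start. These shares therefore cannot show whether the peaks gather behind starts.

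Chained by gaps of at most 500 nt, the PLEC peaks formed 11 clusters in EPI and 8 in MES. The highest log2 ratio in EPI, 7.07, was at chr8:145015190-145015249, in a cluster of 37 peaks and 1710 nt. The highest in MES, 6.71, was at chr8:145017968-145018011, in a first exon, and belonged to the longest cluster, which ran over 8125 nt from chr8:145013046 to 145021170 with 204 peaks in 45 regions and 6 starts inside. In EPI the same stretch was split into 4 clusters of 11, 37, 22 and 23 peaks. Toward the 5′ end most clusters had nearly the same borders in both states, as at chr8:145039084-145040675 with 23 peaks in EPI and chr8:145039087-145040662 with 18 peaks in MES. The cluster nearest the 5′ end differed more. It ran over chr8:145045586-145049707 with 28 peaks and 3 starts inside in EPI, and over chr8:145045580-145049251 with 39 peaks and 1 start in MES. As joined regions, 68 of 75 in EPI (90.7%) overlapped a MES region and 69 of 111 in MES (62.2%) overlapped an EPI region, beside 53.3% and 41.1% over the whole lists.

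The rod exon of PLEC had no peak near it, the closest being 7727 nt away in EPI and 12994 nt in MES. Within 1000 nt of a variable exon there was a peak at 4 PLEC exons in EPI and 1 in MES, and at no DST, MACF1 or DSP exon. All of these PLEC exons were constitutive in the libraries of the comparisons that list them. The 4 EPI peaks downstream of the first shared exon stood at 3 positions, and no MES peak was in that part. In a window of 50 nt on each side of the peak center, 1 of the 4 words was found in 89.1% of PLEC peaks in EPI and 85.8% in MES, beside 81.5% and 78.4% of all peaks, and for joined regions in 85.3% and 78.4%, beside 82.4% and 78.4%.

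**Figure D4:**
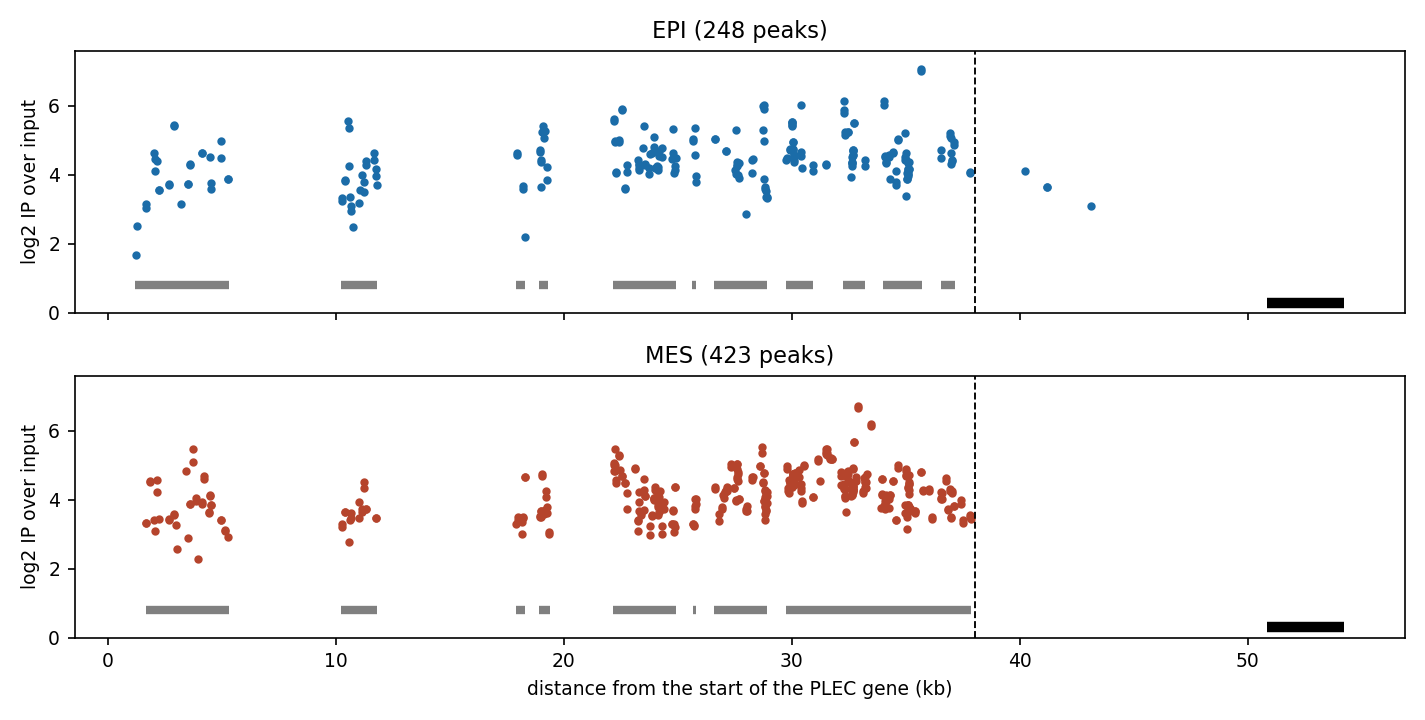
Log2 ratio of immunoprecipitate over input of each AKAP8 peak over PLEC against its distance from the start of the gene in kb, in EPI (top) and MES (bottom). Grey bars mark clusters of peaks, the dashed line marks the first exon shared by the transcripts and the black bar the 3381-nt rod exon, and nearly all peaks, 244 of 248 and 423 of 423, lie before the dashed line.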

How the data were processed

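RNA-seq and eCLIP files of HMLE/Twist-ER cells were used as the authors deposited them. The authors aligned poly(A) paired-end reads to GRCh37 with STAR 2.6.1a and ran rMATS. The 15 deposited tables hold junction read counts as lists per group, with effective lengths (unit other). The peak lists hold log2 IP over input and -log10 adjusted p per the authors' merging of 2 replicates. Of the tables, 30 columns of PSI per sample, the authors' p-values and the gene table of fold changes were not used.

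PSI was computed from reads over effective length. Where an event averaged 20 reads or more per library, inclusion was compared by a quasi-binomial fit (dispersion moderated with limma 3.58.1, robust trend on the reads of the rarer form, never below 1), Benjamini-Hochberg adjusted per event type over all events. Levels used log2(scaled reads + 1), median-of-ratios size factors, at least 10 in at least 2 libraries, and limma with a trend, so fold changes of low genes are understated. Gene levels were sums over the cassette events present in all 3 comparisons. Coverage per event was added after the data were seen, as were joined peak regions. The tests were tested on simulated data. Annotation was Gencode 44 on GRCh37, and python 3.11.15 was used.

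Named were called events, per gene the 3 with the largest PSI difference at 50 or more reads, exons behind known isoform switches (the PLEC rod exon, DST and MACF1 exons over 1000 nt), the 5 highest peaks per gene and state, clusters of at least 3 peaks, and called genes of the lists. Members and lists were chosen with earlier results of these data known. The tables do not number the libraries, and a library was named by its place in the list. Deviations from the group mean of libraries at the same place correlated at 0.282, 0.580 and 0.493 in the EPI knockdown comparison over 9014 genes, which pairs them there.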

Additional observations from a re-analysis of the deposited data

Results flagged for a closer look

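The PSI difference of the DST 18-nt exon after knockdown had opposite signs in the 2 states, but neither difference was called. Every EPI AKAP8 KD library lay above every EPI control library (difference 0.056, adjusted p = 0.706 in the quasi-binomial fit). Every MES AKAP8 KD library lay below both MES control libraries (difference -0.215, adjusted p = 0.252 in the same fit). The share of all events whose PSI separates in this way is not given here. The difference between the 2 effects was -0.284, with p = 9.65e-05 and an adjusted p of 0.268 in the quasi-binomial fit over 11 libraries, so it did not pass the correction over all events. The MES comparison has 2 libraries per group. Groups of 3 or fewer libraries were not searched for single outlying libraries.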

How the results depend on the processing

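With a minimum of 10 or 50 reads or a trend that was not robust, 3 plakin events were called in EMT and 0 in either knockdown. The trend over all reads gave 1 call in MES knockdown and 2 in EMT. In EMT, limma on the logit of PSI kept 1 call, and so did the replicate block on list place, in which the PLEC exon had an adjusted p of 0.0014, DST 0.0845 and MACF1 0.133. The same places correlated at 0.0788, 0.184 and 0.265 in EMT, so they share only a place, and the block gave 0 calls in both knockdowns and in the fit at gene level and changed no other call. It was not run for event coverage. A PSI difference of at least 0.2 left 0 calls in EMT, the PLEC value being just under it. Leaving out single libraries gave 0 to 1 calls in MES knockdown, 3 to 4 in EMT, 0 to 1 at gene level, and for event coverage 0 to 5 in MES knockdown and 5 to 12 in EMT. The coverage count of 11 in EMT was 5 without EPI control library 2 and 7 without MES control library 3. Constitutive events alone gave 1 gene-level call, DST in EMT at 1.11 (adjusted p = 0.0324), and without EPI control library 3 DST was called there too. Joining peaks left 75 and 111 regions over PLEC. A log2 ratio of at least 4 left 260 MES peaks over PLEC and 3 EPI peaks over MACF1, and at 3 or 4 the single peaks of DST, DSP and MACF1 in MES fell to 0. Within 500 and 250 nt, 1 and 0 exons had an EPI peak and 0 a MES peak. With 3 against 3 libraries an exact test cannot go below 0.1, and with 2 against 2 not below 0.333.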
